A study of Mus musculus with 11 samples.

Results

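Glycolysis and the response to low oxygen were followed through 36 genes in colonic epithelial cells of inflamed mice. The 36 genes include HIF alpha subunits, 2 of the enzymes that sense oxygen, and glucose and lactate transporters. They also include enzymes of glycolysis with their regulators, and well-known targets of HIF. They were listed by symbol and role, with no threshold on their values, though with earlier results of these data known, and all 36 were found among the 52550 genes of the count table. The animals were RAG1 KO mice on the C57BL/6 background, which lack the recombinase needed to make mature T and B cells, and every mouse of both groups carried this genotype. The FFD group (6 mice) was kept on a fiber-free diet and the CD group (5 mice) on a diet with cellulose. Both groups ate their diet for 4 weeks, then drank dextran sulphate sodium (DSS) for 5 days, an agent that damages the lining of the colon, and each mouse gave 1 library. No mice without DSS were analysed here, so the comparison is between the diets during inflammation and does not measure the effect of DSS. The paper reports that RAG KO mice fed cellulose resisted colitis better than those without it. Diet and the severity of colitis therefore cannot be told apart here. The age of the mice is not stated in the labels.

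HIF is a transcription factor built from an oxygen-regulated alpha subunit, encoded by Hif1a or Epas1, and a stable partner. When oxygen is plentiful, prolyl hydroxylases of the Egln family mark the alpha subunit for destruction, so that much of the control of HIF acts on the protein and not on its mRNA. When oxygen is scarce, HIF raises the transcription of glucose transporters, glycolytic enzymes and factors for blood vessel growth. The surface epithelium of the colon lies next to a lumen almost free of oxygen and is known for a low oxygen tension in health, and HIF is known there for maintaining the barrier.

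The total count per mouse was 10374154 to 27973285 in FFD mice and 20853535 to 28588266 in CD mice, and FFD mouse 4 had the lowest. The filter on low counts left 15044 genes, among them all 36 genes of the set. A level in CPM is a count scaled to the size of its library after TMM normalization, which scales the libraries on the assumption that most genes do not differ. Differences are log2 fold changes, positive where the level was higher in FFD mice, each with its standard error (SE). They come from edgeR's quasi-likelihood test. A gene was called at a p under 0.05 after the Benjamini-Hochberg adjustment over all 15044 genes. The labels give the number 1 to all CD samples and 2 to all FFD samples, and anything that followed this number cannot be told apart from the diet. Rag1 had 8 to 30 counts in FFD mice and 22 to 40 counts in CD mice, and the sources used here do not say which part of the gene is deleted. The summed level of 10 T and B cell markers was 1.71 to 2.59 CPM in FFD mice and 1.77 to 2.70 CPM in CD mice. Nothing in the labels says that the mice of a diet came from separate cages, so the p-values measure the spread between these mice.

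HIF binds DNA at a short core, known best in the form ACGTG. The form GCGTG was searched as well, and both were searched on either strand. RefSeq promoters of the build GRCm38.p6, each 300 bases long and running from 250 bases before to 50 bases after a transcript start, were found for 33 of the 36 genes, with 51 promoters in all. No promoter was used for Bnip3l, Epas1 and Ndrg1. The core stood in 42 of the 51 promoters (82.4%), against 59.6% of the 14145 promoters of tested genes and 43.8% of all 32851 promoters in the table. The median GC content was 63.0% in the promoters of the set, 60.0% in those of tested genes and 52.7% in all promoters. Counted by gene, 31 of the 33 genes (93.9%) had a core in at least 1 promoter, against 65.4% of tested genes. With ACGTG alone the count was 25 of 33 genes (75.8%), against 28.5% of tested genes. A count by gene favours genes with more promoters, and the 14145 promoters of tested genes belonged to 11053 genes. Counted by promoter, ACGTG stood in 30 of 51 (58.8%), against 24.6% for tested genes. The set was listed in part for well-known HIF targets, so these shares are no independent result. Both genes of the set without a core in these windows, Gpi1 and Tpi1, did not differ past the threshold between the diets. All 15 genes called higher that had a promoter held a core, as did both genes called lower and 14 of the 16 genes not called. The 9 promoters without a core included some of called genes that held it in another promoter, such as Hk1, Pkm and Vegfa.

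Of these promoters, 5 are shown to set genes called higher, of different roles, beside highly expressed enzymes that were not called. The first 3 belong to genes with higher levels in FFD mice, Pfkfb3 (chr2:11502041-11502340, minus strand), Egln3 (chr12:54203825-54204124, minus strand) and Slc2a1 (chr4:119108495-119108794, plus strand). The last 2 belong to genes not called, Ldha (chr7:46845554-46845853, plus strand) and Pgk1 (chrX:106186850-106187149, plus strand). Each is written 5′ to 3′ on the strand of the gene, with the HIF core of either strand in capitals, and CACGTG holds the core on both strands and counts as 2. Pfkfb3 and Ldha have another promoter in the table that is not shown.
Pfkfb3: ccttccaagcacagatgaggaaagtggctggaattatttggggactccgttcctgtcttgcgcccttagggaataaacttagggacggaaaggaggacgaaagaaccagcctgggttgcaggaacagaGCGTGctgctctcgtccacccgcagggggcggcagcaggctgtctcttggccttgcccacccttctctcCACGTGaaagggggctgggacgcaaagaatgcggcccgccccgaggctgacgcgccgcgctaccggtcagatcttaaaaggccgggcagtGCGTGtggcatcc
Egln3: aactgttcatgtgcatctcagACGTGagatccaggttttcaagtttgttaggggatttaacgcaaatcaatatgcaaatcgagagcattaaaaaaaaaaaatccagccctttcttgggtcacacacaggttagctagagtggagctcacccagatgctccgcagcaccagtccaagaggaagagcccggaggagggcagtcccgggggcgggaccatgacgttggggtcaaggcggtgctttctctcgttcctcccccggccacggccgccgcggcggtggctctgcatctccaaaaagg
Slc2a1: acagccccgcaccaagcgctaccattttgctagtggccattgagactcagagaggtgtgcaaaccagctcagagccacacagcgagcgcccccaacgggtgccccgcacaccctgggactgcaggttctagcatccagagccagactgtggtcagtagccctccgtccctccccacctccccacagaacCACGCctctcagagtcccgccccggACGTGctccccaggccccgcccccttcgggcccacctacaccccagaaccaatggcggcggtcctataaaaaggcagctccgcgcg
Ldha: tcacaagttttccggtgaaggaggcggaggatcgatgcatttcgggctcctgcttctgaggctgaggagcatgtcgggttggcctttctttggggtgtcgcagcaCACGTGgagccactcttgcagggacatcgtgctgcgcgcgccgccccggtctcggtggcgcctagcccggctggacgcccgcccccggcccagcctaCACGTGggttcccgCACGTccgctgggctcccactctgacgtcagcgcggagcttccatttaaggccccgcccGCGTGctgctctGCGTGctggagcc
Pgk1: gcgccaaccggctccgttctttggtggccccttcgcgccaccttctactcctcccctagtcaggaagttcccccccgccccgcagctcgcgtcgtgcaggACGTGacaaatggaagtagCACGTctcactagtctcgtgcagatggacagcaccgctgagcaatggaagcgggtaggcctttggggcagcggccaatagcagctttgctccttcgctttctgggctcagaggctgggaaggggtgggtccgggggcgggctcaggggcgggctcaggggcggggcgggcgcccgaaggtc
These windows held 4 cores in Pfkfb3, 1 in Egln3, 2 in Slc2a1, 7 in Ldha and 2 in Pgk1. The window of Ldha thus held the most cores of the 5 while its level did not differ past the threshold, as described further on. A match of these letters does not show that HIF was bound.

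Among all tested genes, 36.8% were called in either direction. Of the 36 genes, 16 were called higher in FFD mice (44.4%), against 18.2% of all tested genes. Another 2 genes, Egln1 and Pfkm, were called lower (5.56%), against 18.6% of all tested genes. The remaining 18 genes did not pass the threshold. The median log2 fold change was 0.23 over the 36 genes and -0.03 over all tested genes. All FFD mice lay above all CD mice for 10 of the 36 genes, a pattern that 8.91% of all tested genes showed, and below them for 1 gene, Pfkm, a pattern that 9.59% showed. The differences were uneven within the set. The genes called higher included both HIF subunits, the glucose transporter Slc2a1, both hexokinases and 3 of the 4 regulators of glycolytic flux, whereas 6 of the 7 glycolytic enzymes from Tpi1 to Ldha were not called. With total counts in place of TMM, 11 genes of the set were called higher and 5 lower, against 1636 higher and 4863 lower over all tested genes, whose median log2 fold change was then -0.19. In a bulk sample, a difference in the number of cells that express a gene and a difference in its RNA per cell cannot be told apart.

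**Figure D1:**
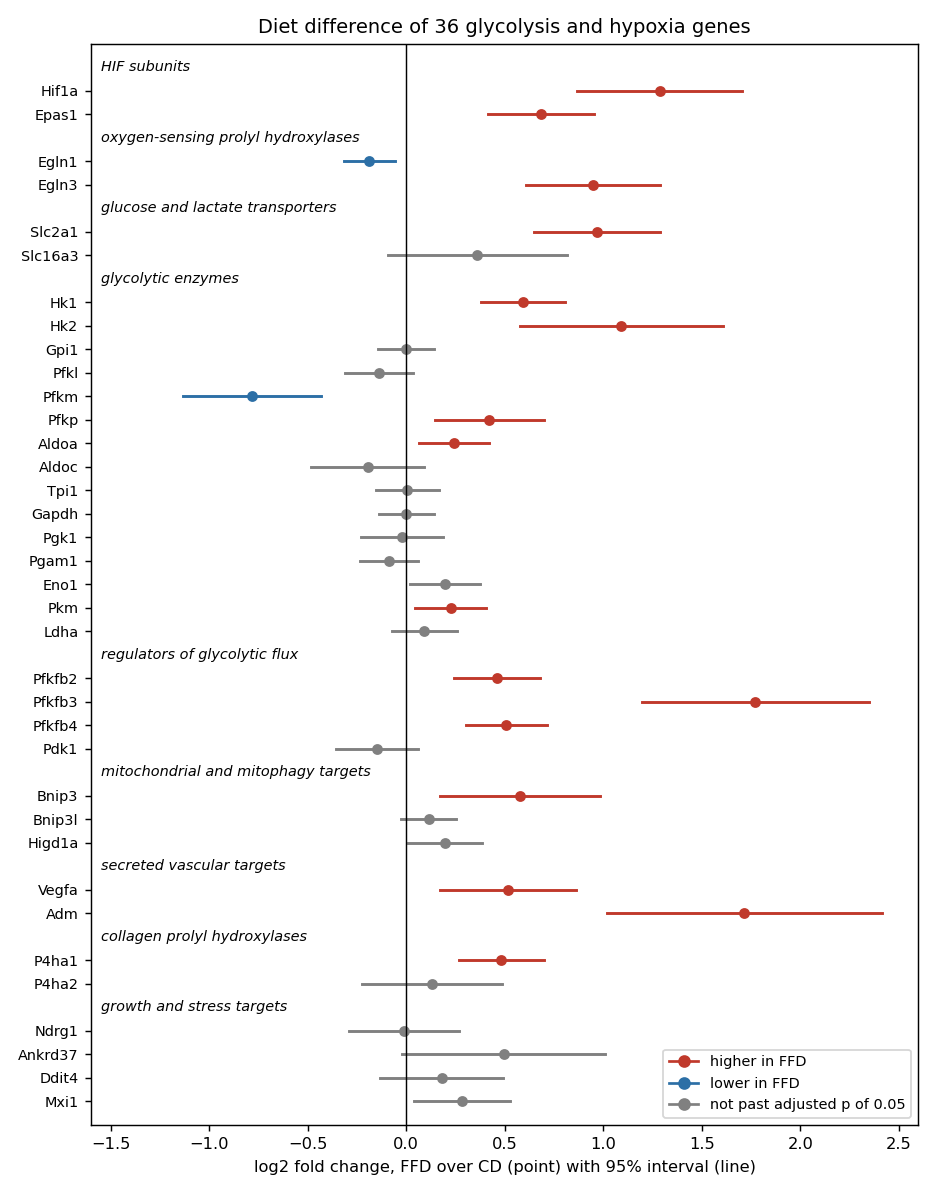
Log2 fold change of FFD over CD (horizontal axis) for the 36 genes, grouped by role, with points for the estimates and lines for their 95% intervals over 6 FFD and 5 CD mice. The 16 genes called higher in FFD are red, the 2 called lower are blue and the 18 not called are grey, and Pfkfb3 at 1.77 and Adm at 1.72 lie farthest to the right.

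Both HIF alpha subunits were higher in FFD mice. Hif1a (chr12:73901375-73947530 in GRCm38) encodes the HIF-1 alpha subunit, and its lowest, median and highest levels were 213, 367 and 483 CPM in FFD mice. In CD mice 1 to 5 it had 121, 131, 148, 134 and 190 CPM. All FFD mice therefore lay above all CD mice, with FFD mouse 3 the lowest of its diet and CD mouse 5 the highest of its own. Hif1a averaged 354 ± 101 CPM in FFD mice and 145 ± 27.0 CPM in CD mice (SD, n = 6 and 5), a log2 fold change of 1.29 (SE 0.19, adjusted p = 0.0011). Exons of Hif1a overlap the annotated genes Gm15283 on the other strand and Gm49321 on the same strand, and the sources used here do not say whether strand was used in counting. Epas1 (chr17:86753700-86833410), which encodes HIF-2 alpha, had 106, 142 and 166 CPM as its lowest, median and highest level in FFD mice, against 93.6, 82.6, 85.6, 72.9 and 91.6 CPM in CD mice 1 to 5. The diets did not overlap here either, and the log2 fold change of Epas1 was 0.68 (SE 0.12, adjusted p = 0.0020).

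The 2 prolyl hydroxylases of the set went in opposite directions. Egln2, another member of this family outside the set, was not called. It averaged 66.9 ± 4.70 CPM in FFD mice and 67.7 ± 3.28 CPM in CD mice (log2 fold change -0.017, SE 0.061, adjusted p = 0.85). Egln3 (chr12:54178981-54203860), which encodes a hydroxylase (PHD3) whose gene is itself a HIF target, had 41.1, 61.9 and 74.8 CPM as its lowest, median and highest level in FFD mice. In CD mice 1 to 5, Egln3 had 29.4, 26.5, 34.5, 25.2 and 39.3 CPM, all below the lowest FFD mouse. Its log2 fold change was 0.95 (SE 0.16, adjusted p = 0.0015). Egln1, which encodes the main hydroxylase of HIF-1 alpha (PHD2), ranged over 44.7 to 51.3 CPM in FFD mice and over 50.3 to 61.1 CPM in CD mice, so the diets overlapped. It averaged 48.4 ± 2.44 CPM in FFD mice and 55.1 ± 3.90 CPM in CD mice, a log2 fold change of -0.19 (SE 0.060, adjusted p = 0.027). The call of Egln1 was lost when FFD mouse 2 or 5 or CD mouse 1, 2, 3 or 4 was left out, with adjusted p-values of 0.051 to 0.10.

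**Figure D2:**
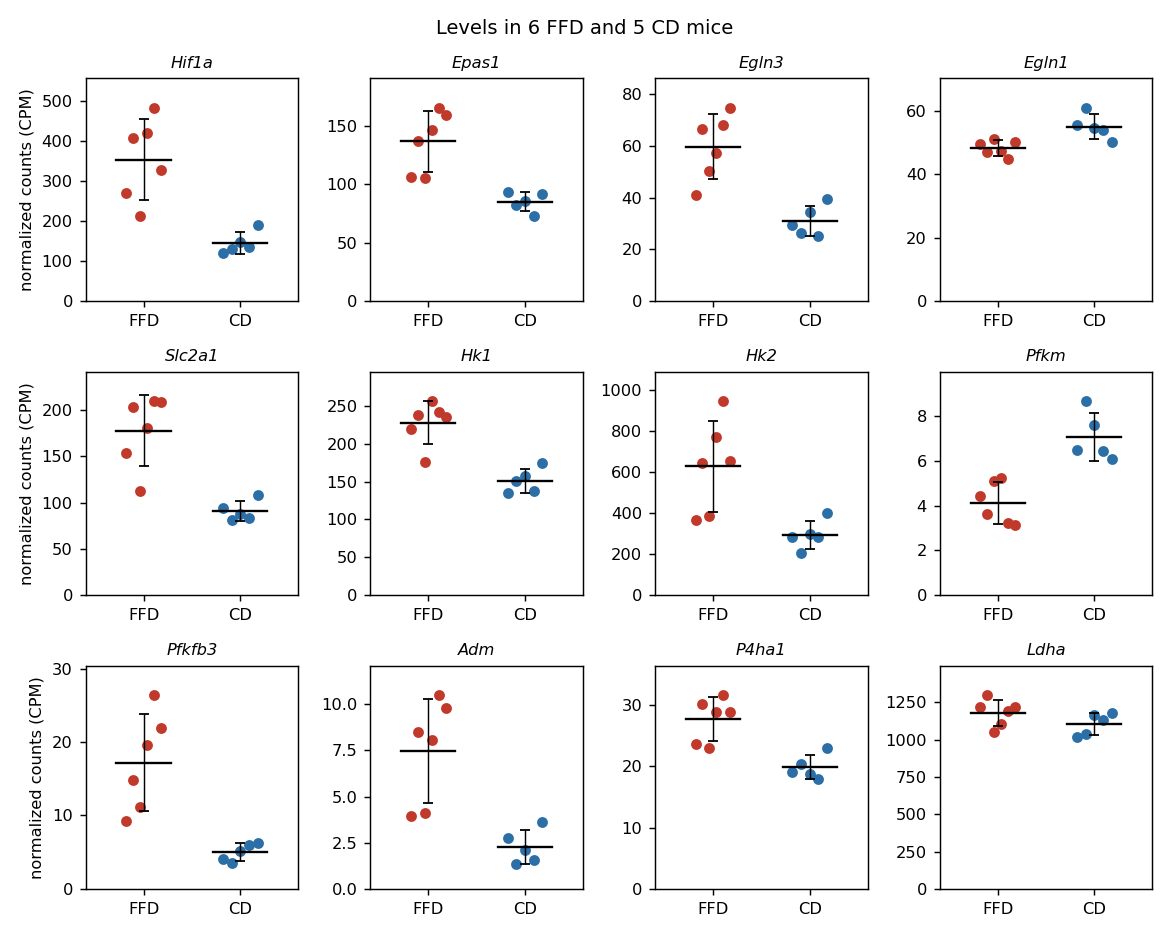
Normalized counts (CPM, vertical axes starting at 0) of 12 genes in 6 FFD mice (red) and 5 CD mice (blue). Points are mice, horizontal bars are means and whiskers are SD, and Hif1a, Epas1, Egln3, Slc2a1, Hk1, Pfkfb3, Adm and P4ha1 show every FFD mouse above every CD mouse while Egln1, Hk2 and Ldha overlap and Pfkm is reversed.

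Transcripts of the glucose transporter and of both hexokinases were higher in FFD mice. Slc2a1 (chr4:119108711-119137983), which encodes the glucose transporter GLUT1, had 112, 192 and 209 CPM as its lowest, median and highest level in FFD mice. CD mice 1 to 5 had 94.2, 81.4, 87.3, 83.3 and 108 CPM. The lowest FFD mouse, FFD mouse 3, stood just above the highest CD mouse, CD mouse 5. The log2 fold change of Slc2a1 was 0.97 (SE 0.15, adjusted p = 0.0011), and its exons overlap Gm12868 on the other strand. Slc16a3, which encodes the lactate exporter MCT4, overlapped between the diets, with 7.25 to 14.5 CPM in FFD mice and 5.29 to 10.5 CPM in CD mice (log2 fold change 0.36, SE 0.21, adjusted p = 0.20).

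Hexokinases phosphorylate glucose once it is in the cell. Hk1 (chr10:62268855-62379908) had 176, 237 and 256 CPM as its lowest, median and highest level in FFD mice, against 135, 151, 158, 138 and 174 CPM in CD mice 1 to 5. The diets were separated by the small gap between FFD mouse 3 and CD mouse 5, and the log2 fold change was 0.59 (SE 0.099, adjusted p = 0.0015). Hk1 shares exon positions with the antisense gene Hk1os. Hk2 (chr6:82725025-82774454), the hexokinase known as the inducible form, had 368, 649 and 945 CPM as its lowest, median and highest level in FFD mice, against 283, 207, 300, 284 and 398 CPM in CD mice 1 to 5. FFD mice 1 and 3 fell within the range of CD mice, below CD mouse 5. Hk2 averaged 628 ± 223 CPM in FFD mice and 294 ± 68.5 CPM in CD mice, a log2 fold change of 1.09 (SE 0.24, adjusted p = 0.0043). Gpi1, the isomerase that follows, averaged 544 CPM in FFD mice and 544 CPM in CD mice, with a 95% interval of the log2 fold change of -0.14 to 0.14 (adjusted p = 0.99).

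The 3 subunits of phosphofructokinase, the committed step of glycolysis, differed among themselves. The platelet-type subunit Pfkp had 210, 277 and 339 CPM as its lowest, median and highest level in FFD mice, against 198, 171, 222, 208 and 239 CPM in CD mice 1 to 5. The diets overlapped through FFD mouse 3, and the log2 fold change was 0.42 (SE 0.13, adjusted p = 0.022). With total counts in place of TMM, the call of Pfkp was lost (log2 fold change 0.26, adjusted p = 0.066). The muscle-type subunit Pfkm had 3.12, 4.03 and 5.24 CPM as its lowest, median and highest level in FFD mice, against 6.49, 8.68, 7.62, 6.44 and 6.08 CPM in CD mice 1 to 5. Every FFD mouse lay below every CD mouse, with a log2 fold change of -0.78 (SE 0.16, adjusted p = 0.0034). Exons of Pfkm overlap those of Gm26513 on the same strand and Senp1 on the other strand. The liver-type subunit Pfkl was not called, with 115 to 148 CPM in FFD mice and 132 to 164 CPM in CD mice (log2 fold change -0.14, SE 0.079, adjusted p = 0.19).

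Below phosphofructokinase, small differences prevailed. Aldoa, the main aldolase, was called higher with a log2 fold change of 0.24 (SE 0.082, adjusted p = 0.034), from 873 to 1135 CPM in FFD mice and from 787 to 961 CPM in CD mice. The table splits Aldoa into 2 rows, and the row with most counts was used. Pkm, the pyruvate kinase whose M1 and M2 forms gene counts cannot tell apart, was called with a log2 fold change of 0.23 (SE 0.084, adjusted p = 0.048), from 848 to 1064 CPM in FFD mice and from 725 to 898 CPM in CD mice. Both calls were close to the threshold. That of Aldoa was lost on leaving out any of FFD mice 1, 2, 5 and 6 and CD mice 1 to 4 (adjusted p = 0.052 to 0.070). That of Pkm was lost without any of these or FFD mouse 4 (adjusted p = 0.052 to 0.10).

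Ldha (chr7:46841475-46855627), which encodes the lactate dehydrogenase subunit that turns pyruvate into lactate, was the most abundant per exon length of the glycolytic enzymes with such a value, which Aldoa lacks, and was not called. Its lowest, median and highest levels were 1052, 1201 and 1297 CPM in FFD mice, against 1017, 1040, 1163, 1133 and 1177 CPM in CD mice 1 to 5. The log2 fold change of Ldha was 0.09 with a 95% interval of -0.07 to 0.26 (adjusted p = 0.36). The same held for Tpi1 (95% interval -0.15 to 0.17), Gapdh (-0.14 to 0.14), Pgk1 (-0.23 to 0.18) and Pgam1 (-0.23 to 0.06), the isomerase, dehydrogenase, kinase and mutase of the middle of the pathway. With this normalization, each of these intervals ended below the log2 fold change of Slc2a1 and of Hk2. Eno1, the enolase, had a log2 fold change of 0.20 (SE 0.082, adjusted p = 0.076). It passed the threshold in DESeq2 (adjusted p = 0.029) and in edgeR when FFD mouse 3 or CD mouse 5 was left out (adjusted p = 0.024 and 0.037). The minor aldolase Aldoc had a log2 fold change of -0.20 (SE 0.13, adjusted p = 0.26).

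Several of these enzymes have processed copies in the genome, and the sources used here do not say how reads that fit several places were counted. Of all 59-base windows of their transcripts, the length of the reads, 53.5% were shared with other genes for Pgk1, 35.7% for Pgam1, 24.8% for Eno1, 23.9% for Gapdh and 22.6% for Pkm. The share was 5.83% for Ldha, 2.85% for Aldoa and 2.74% for Tpi1, and at most 0.05% for Slc2a1, Hk1, Hk2, Pfkp, Pfkl and Pfkfb3. This share compares annotated transcripts only, does not count windows common to the 2 gene models of Aldoa, and is not an error bound on a level. How far shared reads altered the values of the first group was not tested. Per kilobase of exon, Gapdh was at 19.4 CPM in FFD mice and 19.4 CPM in CD mice, below Pgk1 at 249 CPM in FFD mice and 253 CPM in CD mice and below Tpi1 at 209 CPM in FFD mice and 208 CPM in CD mice.

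**Figure D3:**
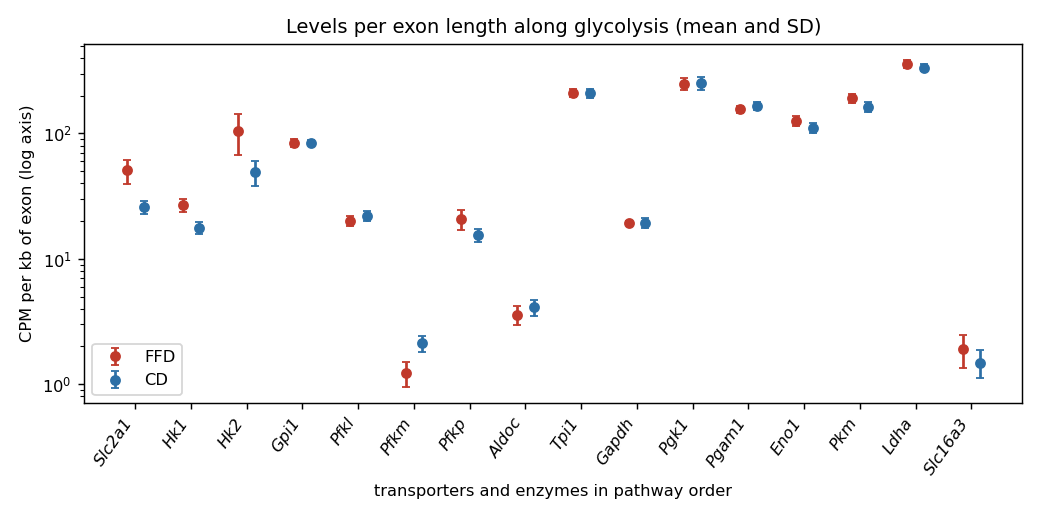
Levels of transporters and enzymes per kilobase of exon (CPM per kb, log axis) in pathway order from glucose entry to lactate export, with means and SD of 6 FFD mice (red) and 5 CD mice (blue). The SD bars of the diets part at Slc2a1, Hk1, Hk2 and Pfkm and overlap at Pfkp. The diets lie on top of each other at Gpi1, Tpi1, Gapdh and Pgk1, and Aldoa is not shown because its annotation has 2 gene models.

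Among the genes with a value per exon length, which Aldoa lacks, the highest level was that of Ldha, at 356 CPM per kb in FFD mice and 334 CPM per kb in CD mice. Pgk1 and Tpi1 came next in both diets. Pkm was at 191 CPM per kb in FFD mice and 164 CPM per kb in CD mice, and Pgam1 at 156 CPM per kb in FFD mice and 166 CPM per kb in CD mice. Hk2 was the more abundant hexokinase in both diets, at 105 CPM per kb in FFD mice and 49.3 CPM per kb in CD mice, while Hk1 was at 26.7 CPM per kb in FFD mice and 17.7 CPM per kb in CD mice. On this scale Pfkp was at 20.8 CPM per kb in FFD mice and 15.5 CPM per kb in CD mice. Pfkl was at 20.1 CPM per kb in FFD mice and 22.1 CPM per kb in CD mice. The lengths merge all annotated exons of a gene, 13401 bases for Pfkp and 6675 for Pfkl, so such comparisons between genes depend on the annotation. Without lengths, Pfkp averaged 278 CPM in FFD mice and 208 CPM in CD mice. Pfkl averaged 134 CPM in FFD mice and 148 CPM in CD mice. Pfkm was at 1.24 CPM per kb in FFD mice and 2.11 CPM per kb in CD mice, so the subunit with the largest change was a minor one. Hif1a was above Epas1 in both diets, at 60.0 CPM per kb in FFD mice and 24.6 CPM per kb in CD mice, with Epas1 at 24.5 CPM per kb in FFD mice and 15.3 CPM per kb in CD mice. GLUT1 transcripts were at 50.7 CPM per kb in FFD mice and 25.9 CPM per kb in CD mice.

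The bifunctional enzymes of the Pfkfb family make and remove fructose 2,6-bisphosphate, the strongest activator of phosphofructokinase, and all 3 of the set were higher in FFD mice. Pfkfb3 (chr2:11471433-11554077), the form with the highest kinase to phosphatase activity, had the largest fold change of the 36 genes. Its lowest, median and highest levels were 9.30, 17.2 and 26.4 CPM in FFD mice, against 4.10, 3.53, 5.19, 5.98 and 6.27 CPM in CD mice 1 to 5. The diets did not overlap, FFD mouse 1 being the lowest of its diet and FFD mouse 5 the highest. Pfkfb3 averaged 17.2 ± 6.60 CPM in FFD mice and 5.01 ± 1.18 CPM in CD mice, a log2 fold change of 1.77 (SE 0.27, adjusted p = 0.0011). Pfkfb4 had 14.4, 17.0 and 20.7 CPM as its lowest, median and highest level in FFD mice, against 11.1, 12.8, 11.3, 12.2 and 13.1 CPM in CD mice 1 to 5 (log2 fold change 0.51, SE 0.096, adjusted p = 0.0023). Pfkfb2 had 50.1, 62.8 and 75.9 CPM as its lowest, median and highest level in FFD mice, against 48.4, 43.8, 46.7, 37.0 and 49.8 CPM in CD mice 1 to 5 (log2 fold change 0.46, SE 0.10, adjusted p = 0.0045). Both were separated between the diets, Pfkfb2 by a narrow gap between FFD mouse 1 and CD mouse 5. Of the windows of Pfkfb2, 15.6% were shared with other genes, and its exons overlap Gm29427 and Yod1. Pdk1, a kinase that holds pyruvate back from the mitochondria and a known HIF target, was not called, with 42.0 to 61.1 CPM in FFD mice and 50.6 to 64.4 CPM in CD mice (log2 fold change -0.15, SE 0.097, adjusted p = 0.24).

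Both secreted HIF targets were higher in FFD mice. Adm (chr7:110627661-110629820), the peptide adrenomedullin that acts on vessels, had 3.93, 8.27 and 10.5 CPM as its lowest, median and highest level in FFD mice. In CD mice 1 to 5, Adm had 2.75, 1.33, 2.08, 1.58 and 3.61 CPM, all below the lowest FFD mouse. It averaged 7.48 ± 2.83 CPM in FFD mice and 2.27 ± 0.924 CPM in CD mice, a log2 fold change of 1.72 (SE 0.32, adjusted p = 0.0023). Vegfa (chr17:46016993-46032369), the growth factor of blood vessels, had 37.0, 55.8 and 74.9 CPM as its lowest, median and highest level in FFD mice, against 38.2, 39.0, 38.6, 32.0 and 40.5 CPM in CD mice 1 to 5. FFD mice 1 and 3 fell among the CD mice while the other 4 lay above all of them. The log2 fold change of Vegfa was 0.52 (SE 0.16, adjusted p = 0.023), and its call was lost without CD mouse 4 (adjusted p = 0.056).

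P4ha1 encodes the main catalytic subunit of the hydroxylase that stabilises collagen. It had 23.0, 28.9 and 31.6 CPM as its lowest, median and highest level in FFD mice, against 19.1, 20.4, 18.8, 18.0 and 23.0 CPM in CD mice 1 to 5. The lowest FFD mouse and the highest CD mouse were all but equal, so the separation of P4ha1 rests on a very small gap. The log2 fold change of P4ha1 was 0.48 (SE 0.10, adjusted p = 0.0033). Its relative P4ha2 was not called, at 2.20 to 4.13 CPM in FFD mice and 2.82 to 3.38 CPM in CD mice (log2 fold change 0.13, SE 0.16, adjusted p = 0.56).

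Among the mitochondrial targets, Bnip3, a receptor for the removal of mitochondria, was called higher, from 12.1 to 23.1 CPM in FFD mice and from 8.28 to 14.4 CPM in CD mice (log2 fold change 0.58, SE 0.19, adjusted p = 0.029). Its call was lost on leaving out FFD mouse 2, 5 or 6 or CD mouse 2 or 4 (adjusted p = 0.059 to 0.071), and 14.6% of its windows were shared with other genes. The related receptor Bnip3l was not called (log2 fold change 0.11, SE 0.065, adjusted p = 0.19). Higd1a, a mitochondrial protein of the inner membrane, had a log2 fold change of 0.20 (SE 0.086, adjusted p = 0.090). Without FFD mouse 3, Higd1a passed the threshold (adjusted p = 0.0048). None of the 4 growth and stress targets passed the threshold in edgeR, namely Ndrg1, a differentiation-related protein, Ankrd37, an ankyrin repeat protein, Ddit4, an inhibitor of mTORC1, and Mxi1, an antagonist of Myc. Their log2 fold changes were -0.01 (SE 0.13, adjusted p = 0.95) for Ndrg1, 0.49 (SE 0.24, adjusted p = 0.12) for Ankrd37, 0.18 (SE 0.14, adjusted p = 0.35) for Ddit4 and 0.28 (SE 0.11, adjusted p = 0.066) for Mxi1. Mxi1 passed in DESeq2 (adjusted p = 0.044) and in edgeR when FFD mouse 1, FFD mouse 3 or CD mouse 1 was left out (adjusted p = 0.020 to 0.048), and Ankrd37 without FFD mouse 4 (adjusted p = 0.028).

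Because 2 related genes of a library share its depth and its normalization, their ratio does not depend on how libraries were scaled. The log2 ratio of counts was taken for 6 pairs in each mouse and compared with an exact two-sided permutation test over all splits of the 11 mice, which can give no p below 0.0022. Pfkfb3 made up 15.6% to 29.01% of the counts of Pfkfb3 and Pfkfb2 in FFD mice and 7.45% to 13.9% in CD mice. The mean log2 ratio was -1.94 ± 0.45 in FFD mice and -3.19 ± 0.41 in CD mice (SD, n = 6 and 5), a difference of 1.25 (exact p = 0.0022, adjusted over the 6 pairs 0.013). Egln3 made up 45.3% to 60.3% of the counts of Egln3 and Egln1 in FFD mice and 30.2% to 43.9% in CD mice. Its mean log2 ratio to Egln1 was 0.28 ± 0.36 in FFD mice and -0.85 ± 0.34 in CD mice, a difference of 1.12 (exact p = 0.0043, adjusted 0.013), and the ranges of the diets did not overlap in either pair.

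The ratio of Aldoc to Aldoa was lower in FFD mice, with means of -6.47 ± 0.28 in FFD mice and -6.02 ± 0.19 in CD mice and a difference of -0.44 (exact p = 0.015, adjusted 0.030). It missed the threshold without CD mouse 1, 2 or 5 (adjusted p = 0.057, 0.067 and 0.057 in exact tests). The other 3 pairs did not pass after adjustment. The difference was 0.55 for Pfkp to Pfkl (exact p = 0.041, adjusted 0.062), 0.45 for Hk2 to Hk1 (exact p = 0.074, adjusted 0.074) and -0.36 for P4ha2 to P4ha1 (exact p = 0.069, adjusted 0.074). Without FFD mouse 3 the ratio of Pfkp to Pfkl passed (adjusted p = 0.012, exact test), as did Hk2 to Hk1 and P4ha2 to P4ha1 without FFD mouse 1 (adjusted p = 0.024 for each, exact test). Hk2 made up 62.6% to 79.6% of the counts of both hexokinases in FFD mice and 57.9% to 69.5% in CD mice, and FFD mouse 1, the lowest of its diet, was below 4 of the 5 CD mice.

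**Figure D4:**
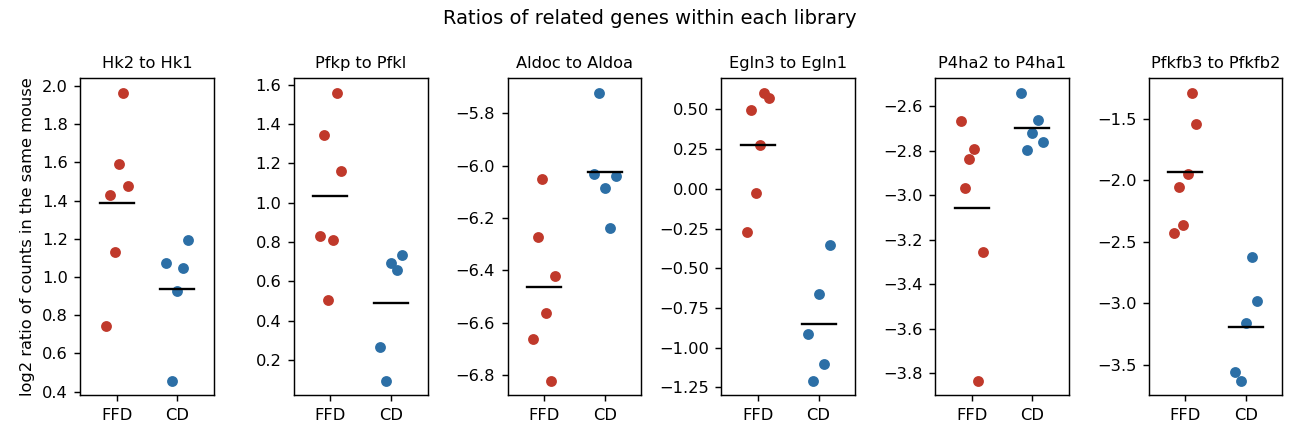
Log2 ratio of the counts of 2 related genes in the same mouse (vertical axes, which differ between panels and do not start at 0) for 6 FFD mice (red) and 5 CD mice (blue), with bars for means. Egln3 to Egln1 and Pfkfb3 to Pfkfb2 are separated between the diets, and the other 4 pairs overlap.

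The same few mice stood at the ends of the FFD range, and the same mouse at the top of the CD range, for most genes called higher. Among these 16 genes, FFD mouse 5 had the highest level of its diet for 10, FFD mice 4 and 6 for 3 each, and FFD mouse 3 the lowest for 10 and FFD mouse 1 for 6. In CD mice, mouse 5 had the highest level for 15 of the 16 genes and mouse 1 for the other, Epas1, while the lowest level was spread over mouse 2 (6 genes), mouse 1 (5 genes) and mouse 4 (5 genes). The summed level of the 36 genes was 7394 to 9481 CPM in FFD mice and 6791 to 7849 CPM in CD mice, lowest of its diet in FFD mouse 3 and highest of its diet in CD mouse 5. The diets overlapped in this sum through FFD mouse 3 alone, and it is dominated by the abundant enzymes that differed little.

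**Figure D5:**
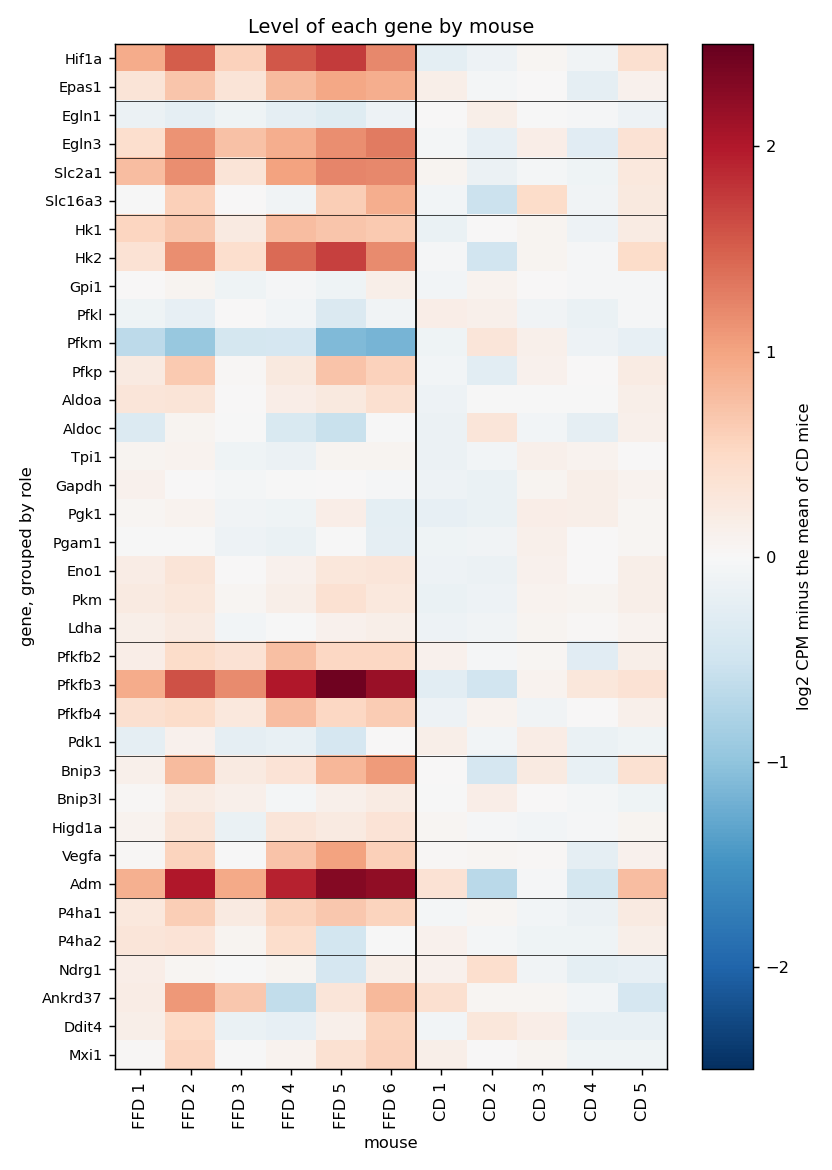
Level of the 36 genes (rows, grouped by role) in each of 6 FFD and 5 CD mice (columns), colored by log2 CPM minus the mean of the CD mice for that gene, red for higher and blue for lower. FFD mice 2, 4, 5 and 6 are deeper red than FFD mice 1 and 3 in Hif1a, Hk2, Pfkfb3 and Adm, and the rows from Tpi1 to Ldha are nearly white throughout.

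Other genes of the same pathways were called in both directions. Of 137 such genes on 4 lists, 122 were tested, of which 27 were called higher (22.1%) and 14 lower (11.5%), against 18.2% and 18.6% of all tested genes, with a median log2 fold change of 0.04. Of 45 tested genes of glycolysis and pyruvate fate, 7 were higher (15.6%) and 4 lower (8.89%). The smallest p-value was that of Pcx, which carboxylates pyruvate to oxaloacetate, at 109 ± 22.1 CPM in FFD mice and 51.7 ± 10.01 CPM in CD mice (log2 fold change 1.07, SE 0.15, adjusted p = 0.0010). Gpd2, the mitochondrial glycerol-3-phosphate dehydrogenase, had a log2 fold change of 0.60 (SE 0.11, adjusted p = 0.0022), and Pklr, the pyruvate kinase of liver and red cells, 0.37 (SE 0.083, adjusted p = 0.0046). In the other direction, Pck2, the mitochondrial phosphoenolpyruvate carboxykinase, had -0.82 (SE 0.15, adjusted p = 0.0022) and G6pc3, a glucose-6-phosphatase, -0.32 (SE 0.083, adjusted p = 0.0100).

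Of 19 regulators of HIF, 1 was higher (5.26%) and 4 were lower (21.1%), against 18.2% and 18.6% of all tested genes, so the share called lower was close to that of all genes. Rack1, a scaffold known to promote the breakdown of HIF-1 alpha without regard to oxygen, was at 921 ± 113 CPM in FFD mice and 1380.2 ± 195 CPM in CD mice (log2 fold change -0.58, SE 0.11, adjusted p = 0.0023). Siah2, a ubiquitin ligase that acts on the Egln hydroxylases, had -0.48 (SE 0.091, adjusted p = 0.0023) and Rbx1, a part of the ligase that destroys HIF alpha, -0.23 (SE 0.063, adjusted p = 0.013). Os9, a lectin of the endoplasmic reticulum, was the gene called higher, at 0.20 (SE 0.057, adjusted p = 0.014).

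Of 47 tested hypoxia targets outside the set, 14 were higher (29.8%) and 5 lower (10.6%), against 18.2% and 18.6% of all tested genes. Mxd1, an antagonist of Myc, was at 483 ± 157 CPM in FFD mice and 189 ± 33.2 CPM in CD mice (log2 fold change 1.36, SE 0.21, adjusted p = 0.0011). Ccng2, cyclin G2, had 1.17 (SE 0.19, adjusted p = 0.0014) and Plin2, a coat protein of lipid droplets, 0.57 (SE 0.098, adjusted p = 0.0017). Jmjd6, a hydroxylase of the nucleus, had -0.50 (SE 0.082, adjusted p = 0.0014), and the cytokine Mif -0.69 (SE 0.14, adjusted p = 0.0035). Of 11 tested HIF targets known for the mucosal barrier, 5 were higher (45.5%) and 1 was lower (9.09%). Nt5e, which makes adenosine from AMP outside the cell, was at 49.3 ± 4.66 CPM in FFD mice and 18.2 ± 3.63 CPM in CD mice (log2 fold change 1.44, SE 0.12, adjusted p = 0.00032). Ckmt1, the mitochondrial creatine kinase, had 0.71 (SE 0.094, adjusted p = 0.00086) and the membrane mucin Muc3 0.90 (SE 0.19, adjusted p = 0.0038), whereas the cytosolic creatine kinase Ckb had -1.01 (SE 0.19, adjusted p = 0.0025).

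Markers of several cell types and states were also called between the diets. For comparison, 18.2% of all tested genes were called higher and 18.6% lower. Of 14 markers of absorptive colonocytes, the mature cells of the surface, 10 were called higher, with a summed level of 18126 to 31964 CPM in FFD mice and 10759 to 15528 CPM in CD mice. FFD mouse 3 was the lowest of its diet and CD mouse 5 the highest of its own in this sum, the same mice as for most genes called higher in the set. Of 16 markers of dividing cells, 12 were called lower, with a summed level of 533 to 1293 CPM in FFD mice and 1313 to 1863 CPM in CD mice. Of 12 epithelial markers, 9 were higher, with a sum of 14978 to 19732 CPM in FFD mice and 13208 to 15577 CPM in CD mice, led by Krt8. The part of these shifts in the values of the 36 genes was not tested.

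Of 14 macrophage and monocyte markers, 5 were higher (35.7%), against 18.2% of all tested genes. The markers summed to 374 to 534 CPM in FFD mice and 263 to 340 CPM in CD mice. Most of this sum came from Ctss and Cd14. The other 3 called higher were Mrc1 at 4.11 CPM in FFD mice and 1.40 CPM in CD mice, Itgam at 11.8 CPM in FFD mice and 5.97 CPM in CD mice, and C1qb at 1.62 CPM in FFD mice and 0.891 CPM in CD mice. The markers Cd68, C1qa and Tyrobp were each at 1.31 to 1.78 CPM in FFD mice and 1.24 to 1.495 CPM in CD mice and were not called. Of 12 neutrophil markers, 5 were tested and 3 higher, with a sum of 73.7 to 286 CPM in FFD mice and 26.7 to 73.0 CPM in CD mice, mostly Ly6g and Ltf, while Cxcr2, Mpo and Elane were below the filter on low counts. Of 12 markers of fibroblasts, muscle and endothelium, 3 were tested and edgeR called 0 (1, Vwf, was lower at an unadjusted p under 0.05), with a sum of 3.83 to 6.96 CPM in FFD mice and 5.73 to 8.29 CPM in CD mice. Of 7 red blood cell genes, 2 were tested and 1 was higher, with a sum of 0.907 to 8.13 CPM in FFD mice and 1.44 to 3.19 CPM in CD mice. Of 11 immediate early genes, which respond to handling of cells, 3 were higher (27.3%), against 18.2% of all tested genes. These 11 genes summed to 5398 to 7560 CPM in FFD mice and 4676 to 7312 CPM in CD mice. Ribosomal protein genes took 2.88% to 4.47% of the counts in FFD mice and 4.65% to 6.34% in CD mice. Mitochondrial transcripts took 4.97% to 6.42% of the counts in FFD mice and 4.04% to 6.27% in CD mice, where CD mouse 1 was the highest and the next was at 4.81%. The part of these levels in the results was not tested.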

How the data were processed

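Colonic epithelial cells were released by the authors with DTT and EDTA and a Percoll gradient, and poly(A) RNA was sequenced as single reads of 59 bases. Reads were mapped to GRCm38 with the CLC Workbench, and the authors deposited the raw counts per gene of 11 mice. Tools in the submitters' processing notes are FastQC, R 3.5.1 and DESeq2 1.22.2. The sources used here do not state the annotation release, the use of strand or the handling of reads with several matches.

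The filter was filterByExpr with a minimum count of 10 and a minimum total of 15. After TMM scaling, diet was the only term in the quasi-likelihood test of edgeR 4.0.16 in R 4.3.3. P-values were adjusted over all 15044 tested genes. Each mouse was treated as a replicate. Any pair within a diet differed beyond sampling noise (the smallest chi-square over its degrees of freedom was 13.2). No library was therefore a copy of another of its diet, but this does not show that the mice were independent. CPM per kb used the merged length of all annotated exons of a gene in GENCODE M21 for GRCm38. Promoter windows are from RefSeq. Ratios of 6 gene pairs had 0.5 added to each count. The precision of a count depends on the depth, which was lowest in FFD mouse 4. The procedure was tried on simulated data in which few genes changed, as many up as down. Such data cannot check the TMM scaling where 36.8% of tested genes were called. Alternatives were DESeq2 1.42.0, limma 3.58.1 (voom), other scalings and filters, thinned libraries, a replicate block and each mouse left out.

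The genes of the set and the other lists were chosen with earlier results of these data known. Values of every mouse, or the range of the 6, are given for the 14 genes of the set with the smallest p-values past the threshold and for Hif1a, Slc2a1, Ldha and Vegfa, the others by fold or range. Of each other list, up to 4 genes with the smallest p and up to 2 in the opposite direction are named. Egln2 is named as well, as a relative of Egln1 and Egln3. Same-numbered mice did not deviate together as a rule (5 pairs, correlations -0.28 to 0.23, of which 2 were over 0.1). The mice were therefore not treated as pairs, though 5 pairs are too few to tell whether they were.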

Additional observations from a re-analysis of the deposited data

Results flagged for a closer look

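The levels of the 36 genes were searched for a mouse that stood apart from the others of its diet, by Dixon's test on 72 groups of mice, of which chance alone would flag about 1 in 20. There were 2. Ndrg1 in FFD mice had its lowest level in FFD mouse 5, at 64.1 CPM, while the next mouse was at 85.2 CPM, a gap of 0.695 of the range of the diet. FFD mouse 5 was also the mouse with the highest level of its diet for 10 of the 16 genes called higher. Vegfa in CD mice had its lowest level in CD mouse 4, at 32.0 CPM, while the next mouse was at 38.2 CPM, a gap of 0.754 of the range of the diet. Without CD mouse 4 the call of Vegfa was lost in edgeR's quasi-likelihood test (adjusted p = 0.056).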

How the results depend on the processing

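In all 20 alternatives, 11 of the 16 genes called higher, 1 of the 2 called lower (Pfkm) and 11 of the 18 not called stayed on the same side of the threshold. Scaling mattered most: without TMM the median log2 fold change of all tested genes moved by -0.15, that of the set was 0.078, 5 genes of the set, 32 other pathway genes and 4863 of all genes were called lower, and 1636 of all genes higher. Tpi1 (-0.15), Gapdh (-0.15), Ldha (-0.064), Bnip3l (-0.041) and P4ha2 (-0.017) then changed sign, Pfkl, Pgam1 and Pdk1 were called lower, and the calls of Aldoa, Bnip3, Pfkp, Pkm and Vegfa were lost. Values near 0 changed sign elsewhere too. They were 0.018 for Gpi1 and 0.0059 for Ndrg1 with RLE size factors, 0.021 and 0.0076 with DESeq2, and 0.011 and 0.0012 with a strict filter. Gpi1 was 0.00077 with no filter and Ndrg1 0.010 in thinned libraries. Of the genes called lower, 1 remained with no filter, with thinned libraries and with the replicate block. With each mouse left out, 12 (without CD mouse 4) to 19 (without FFD mouse 3) genes of the set were higher and 1 to 2 lower (1 without FFD mouse 2 or 5 or CD mice 1 to 4), and 8 (without CD mouse 3) to 17 other pathway genes were lower. The log2 fold change then ranged over -0.032 to 0.037 for Gpi1, -0.012 to 0.048 for Tpi1, -0.026 to 0.042 for Gapdh, -0.061 to 0.030 for Pgk1 and -0.066 to 0.12 for Ndrg1. The differences in log2 ratio ranged over 0.33 to 0.58 for Hk2 to Hk1, 0.44 to 0.65 for Pfkp to Pfkl, -0.52 to -0.37 for Aldoc to Aldoa and -0.44 to -0.21 for P4ha2 to P4ha1.

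The main fit did not treat same-numbered mice as pairs, and 5 such pairs are too few to tell whether they were. With the replicate block, 11 genes of the set were higher and 1 lower, and 1829 of all genes were lower. The calls of Aldoa, Bnip3, Pfkp, Pkm, Vegfa and Egln1 were lost there, with adjusted p-values of 0.068 for Pfkp and 0.064 for Vegfa in edgeR. Tpi1 was -0.0057 and Pgk1 0.025. Over the 5 blocked pairs, which leave out FFD mouse 6, the differences in log2 ratio were -0.45 for Aldoc to Aldoa, 1.07 for Egln3 to Egln1 and 1.18 for Pfkfb3 to Pfkfb2, and none passed the threshold there, as 5 pairs allow no exact p under 0.05. The causes of these shifts were not tested.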
